A study of Rattus norvegicus with 12 samples.

Results

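The transcripts of enzymes that write or erase marks on histones and DNA, and of genes that share their names, were compared between adipocytes of rats after chronic unpredictable stress (CUS) and of control rats. The members were all genes on the array whose name begins with Hdac, Sirt, Kdm, Dnmt, Tet, Ezh, Setd, Prmt, Suv, Mll or Kat, 63 of 26541 genes, read by 78 of 30367 probes. Of these, 27 are writers and 29 are erasers, and 7 are neither, although the name rule takes them in. The 6 CUS rats were male Fisher 344 rats, about 12 weeks old, exposed to 2 stressors per day for 35 days in a randomised sequence that included swim stress, rotation, isolation, food and water deprivation, altered lighting, wet bedding and crowding. The 6 control rats were male Fisher 344 rats that were handled only, and the methods give housing in pairs outside the isolation and crowding sessions, while a legend names single housing for stressed rats. Epididymal adipocyte RNA was labelled with the dye Cy3 and put on Agilent arrays, 1 per rat. The labels call the cells adipocytes in one field and preadipocytes in another.

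Chromatin enzymes add or remove small chemical groups on histone tails and on cytosine in DNA. Acetyltransferases loosen chromatin and deacetylases tighten it, while methyl marks favour or block transcription according to the residue that carries them. Many of these enzymes draw on intermediates of metabolism: acetyltransferases on acetyl-CoA, methyltransferases on S-adenosylmethionine, sirtuins on NAD, and demethylases and TET enzymes on 2-oxoglutarate. In fat, sirtuins and class II deacetylases are known as regulators of adipocyte differentiation and lipid storage. Several sirtuins work mainly outside the nucleus, in the cytoplasm or in mitochondria, on proteins other than histones.

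All values are log2 signals relative to the 75th percentile of the array, and each gene was read from its brightest probe. The 75th percentile was an intensity of 541 to 627 on CUS arrays and of 229.6 to 400 on control arrays, and 64.7% to 67.0% of probes on CUS arrays and 60.4% to 67.3% on control arrays were well above background. Each slide held the arrays of 1 group only, and the effects of slide and of stress cannot be told apart in the values given here. Spike-in RNAs, which are added before labelling, differed by -0.83 after this scaling and by -0.05 without it, CUS minus control. Scaled to them, the median of all tested probes was 0.81 higher in CUS, and with normexp background correction it was 0.18 lower. Transcripts of other cells also differed between the groups. All 5 tested red blood cell transcripts were higher in CUS (median difference 4.53) and so were 6 of 7 mast cell transcripts (median 2.42), although 2 of the 6 had a difference below 0 with normexp background correction. Of 4 mesothelial transcripts 3 were higher (median 1.52), and of 7 macrophage transcripts 2 were higher (median 0.66), with none lower in either list. Of 7 endothelial transcripts 4 were lower, of which 1 was above 0 with spike-in scaling. Of 7 adipocyte markers, Cidec (1.67), Lep (0.77) and Pparg (0.52) were higher and Plin1 (-0.60) was lower, where Plin1 was above 0 with spike-in scaling. Adipoq and Fabp4, the brightest of them, had mean log2 signals of 8.58 and 8.48 in CUS and of 8.41 and 8.10 in controls and did not pass, although both were called higher with quantile normalization (adjusted p = 0.036 and 0.012). Control replicate 3 stood apart, with the highest summed signal of adipocyte markers (10.15) and the lowest of endothelial markers (4.17) and of macrophage markers (3.39) of all 12 arrays. The part of these differences in the results below was not tested.

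The probes were 60 bases long, and their positions are those that the design of the array gives on rn4, a build of the rat genome. No exon annotation of that build was used here. A few are printed, because the reading of a member turned on which probe was taken or because the groups did not overlap. The probes of Tet2, on the minus strand at chr2:231016042-231016101 and chr2:231016073-231016132, share 29 bases, shown in capitals, and are therefore nearly a repeat measurement of one stretch of the transcript.
Tet2, brightest probe: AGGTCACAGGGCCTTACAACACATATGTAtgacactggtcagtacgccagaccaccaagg
Tet2, other probe: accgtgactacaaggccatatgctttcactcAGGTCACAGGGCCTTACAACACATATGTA
Kdm2a and Kat5 each had a dimmer probe that passed the test while the brightest one did not, as did Suv420h1, whose probes differed little. Those of Kdm2a and Kat5 lie on the minus strand of chromosome 1, at chr1:206906375-206906434 for Kdm2a and at chr1:208233835-208233894 for Kat5, and start 2853 and 400 bases from the brightest probe.
Kdm2a, dimmer probe: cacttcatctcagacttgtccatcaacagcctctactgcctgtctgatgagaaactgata
Kat5, dimmer probe: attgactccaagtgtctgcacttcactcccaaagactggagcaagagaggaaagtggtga
Hdac7 was read at 3 places of its transcript, and the dimmer probes, at chr7:136504073-136504132 and chr7:136510672-136510731 on the minus strand, are shown because they share no bases with each other or with the brightest one and all 3 were lower in CUS.
Hdac7, probe nearer to the brightest: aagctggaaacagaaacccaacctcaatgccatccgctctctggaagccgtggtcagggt
Hdac7, probe farther from the brightest: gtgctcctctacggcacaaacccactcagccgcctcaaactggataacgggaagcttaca
Kat2a (chr10:89642508-89642567, minus strand), Kdm2b (chr12:34801567-34801626, plus strand) and Sirt2 (chr1:83890733-83890792, plus strand) had 1 probe each, with no overlap between CUS and control values.
Kat2a, only probe: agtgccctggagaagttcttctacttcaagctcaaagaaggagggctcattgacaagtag
Kdm2b, only probe: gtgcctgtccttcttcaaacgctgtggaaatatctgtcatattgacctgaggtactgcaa
Sirt2, only probe: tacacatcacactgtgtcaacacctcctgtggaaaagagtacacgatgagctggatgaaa

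Of the 63 members, 55 were well above background on at least 6 arrays and were tested, 49 of them on all 12 arrays. In CUS, 15 members were higher and 19 were lower, while 21 failed the threshold (limma with a two-sided test, Benjamini-Hochberg adjusted p under 0.05 over all 19728 tested probes). The members were called at a share not far above that of all genes, and few of their changes passed a fold of 2. The share called was 61.8% of members, against 50% of the 17417 genes tested, with 27.3% of members higher against 24.2% of genes, and 34.5% of members lower against 25.8% of genes. Past a fold of 2 stood 3 members, Sirt1, Suv420h2 and Hdac7, or 5.45% of members against 12% of genes, and all 3 were lower. Most genes past a fold of 2 were lower as well, 1531 of 2095. The CUS and control values did not overlap for 15 members, or 27.3%, against 21.9% of genes. The median difference was -0.07 over the members and -0.03 over all genes, and its median size was 0.45 and 0.38. Without control replicate 3, 16 members were higher and 22 were lower. This array was the highest control for every higher member but Hdac3. It was the lowest control for several lower members, among them Sirt1, Suv420h2, Hdac7, Dnmt3b and Kdm2b. For other lower members it was not the lowest, and for Hdac4 and Kat2a it was the highest control.

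The direction of the lower members rested on the scaling: of 19 lower members, 14 had a difference above 0 with spike-in scaling and 5 stayed below 0, namely Sirt1, Suv420h2, Hdac7, Dnmt3b and Kdm2b. Sirt1 alone was still called lower (-0.60, limma adjusted p = 0.045) and Sirt6 was called higher (0.57, adjusted p = 0.024). Spike-in scaling shifts the difference of every gene by the same amount, so no higher member could fall below 0 with it. All 15 higher members were still called, between 1.12 for Hdac3 and 1.66 for Kat3. The lower members all lay below the shift of 0.81 that this scaling gave the median of all tested probes, and the higher members all lay above it. This too follows from the shared shift and is no separate support. With normexp background correction, Hdac8 (-0.31), Prmt3 (-0.31) and Sirt4 (-0.28), all 3 of them dim, had differences below 0 in place of above. Quantile normalization kept the sign of all 34 called members, but Setd7 and Tet2 lost their calls with it. Each array was also left out in turn, and 30 of the 34 calls were kept in all 12 omissions. The calls of Hdac1, Prmt10, Sirt6 and Tet2 were lost in at least 1 of them.

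**Figure D1:**
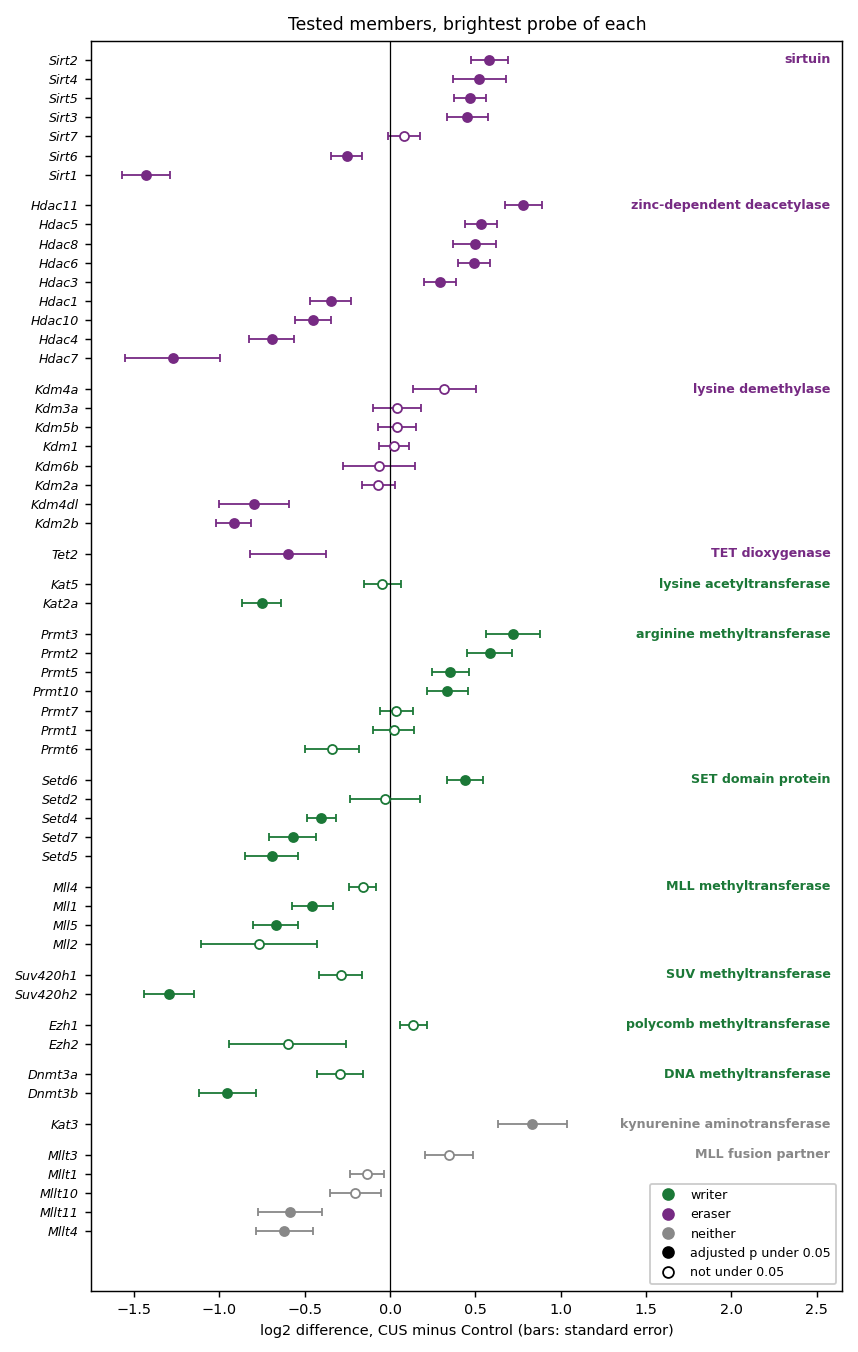
Log2 differences, CUS minus Control, of the 55 tested members by family, with standard errors as bars (n = 6 rats per group), and filled points where the adjusted p was under 0.05. Sirtuins and zinc-dependent deacetylases lie on both sides of 0, arginine methyltransferases that passed lie above it, and MLL and SUV methyltransferases that passed lie below it. With spike-in scaling 14 of the 19 lower members would lie above 0, and with normexp background correction Hdac8, Prmt3 and Sirt4 would lie below it.

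Set by role, 8 of 24 tested writers were lower (33.3%, against 25.8% of all genes), 5 were higher (20.8%, against 24.2%) and 11 did not pass. The 8 include Mll5, counted here by its family although it lacks clear activity of its own. Of 25 erasers tested, 9 were lower (36%), 9 were higher (36%) and 7 did not pass. The median difference was -0.29 for writers and 0.04 for erasers. Roles were assigned by family, and several erasers act mainly on targets other than histones. These are Hdac6, Hdac10, Hdac11, Sirt2 and the mitochondrial Sirt3, Sirt4 and Sirt5. Some writers also have targets other than histones, among them Prmt3 and Setd6, as given below. The counts, the medians and the ratio below are therefore no measure of chromatin marks. The mean signal of the writers minus that of the erasers on the same array ranged in CUS over -0.12 to 0.12 (median -0.08), and in controls over 0.07 to 0.24 (median 0.08). CUS replicate 3, at 0.12, was the only CUS array above 0 and lay within the control range, while the other 5 lay below every control. This ratio within an array takes out a factor that scales all signals of the array alike, but not a difference in background. The ratio was not computed with normexp background correction. With that correction 5 writers were higher and 15 lower, and 6 erasers were higher and 13 lower. No test was made of the ratio because the members were chosen with results of these arrays known.

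The sirtuins, which use NAD to remove acetyl and other acyl groups, split by member. Sirt1 fell, Sirt6 was lower by a small margin, Sirt2, Sirt3, Sirt4 and Sirt5 rose and Sirt7 did not pass the test, where Sirt6 turned higher with spike-in scaling and Sirt4 turned lower with normexp background correction. Sirt1, the nuclear deacetylase best known from fasting, had log2 signals of -3.78 to -3.24 (median -3.73) in CUS and of -2.64 to -1.84 (median -2.19) in controls. No CUS array reached the lowest control array. The difference was -1.43 (standard error 0.14, limma adjusted p = 1.3e-05), or 0.371 times the control level. It was the largest fall among the members with this scaling, but Suv420h2 and Hdac7 had larger ones with quantile normalization and with normexp background correction, and Hdac7 without control replicate 3. Sirt2, the mainly cytoplasmic tubulin deacetylase, ranged over -0.88 to -0.47 (median -0.70) in CUS and over -1.55 to -0.96 (median -1.32) in controls. The groups did not overlap, and the difference was 0.58 (standard error 0.11, adjusted p = 0.0010). Sirt5, the mitochondrial desuccinylase, was the brightest sirtuin probe, with 4.07 to 4.49 (median 4.37) in CUS and 3.72 to 4.11 (median 3.86) in controls. Its lowest CUS value lay just below its highest control value, that of control replicate 3, and its difference was 0.47 (standard error 0.09, adjusted p = 0.0016). The other mitochondrial members rose as well, Sirt3, the main deacetylase of mitochondrial enzymes, by 0.45 (adjusted p = 0.0076) and Sirt4 by 0.52 (adjusted p = 0.016), although Sirt4 was dim and its difference was -0.28 with normexp background correction. Sirt6, a nuclear deacetylase of DNA repair and glucose metabolism, differed by -0.26 (adjusted p = 0.033), a call that was lost in 7 of the 12 omissions (adjusted p up to 0.067). The nucleolar Sirt7 differed by 0.08 (adjusted p = 0.49).

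The ratio of Sirt5 to Sirt1 on the same array was 7.58 to 8.25 (median 8.11) in CUS and 5.65 to 6.75 (median 6.02) in controls, on the log2 scale. That of Sirt3 to Sirt1 was 2.60 to 3.38 (median 3.1) in CUS and 0.64 to 1.99 (median 1.09) in controls. In both ratios the groups did not overlap, and control replicate 3 was the control nearest to CUS. Each ratio joins a member that rose and Sirt1, which fell without overlap. The ranges of the single genes already fix the lack of overlap in the ratios, which are no separate support. Probes differ in brightness, so only the difference between groups in such a ratio can be read, not its size.

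**Figure D2:**
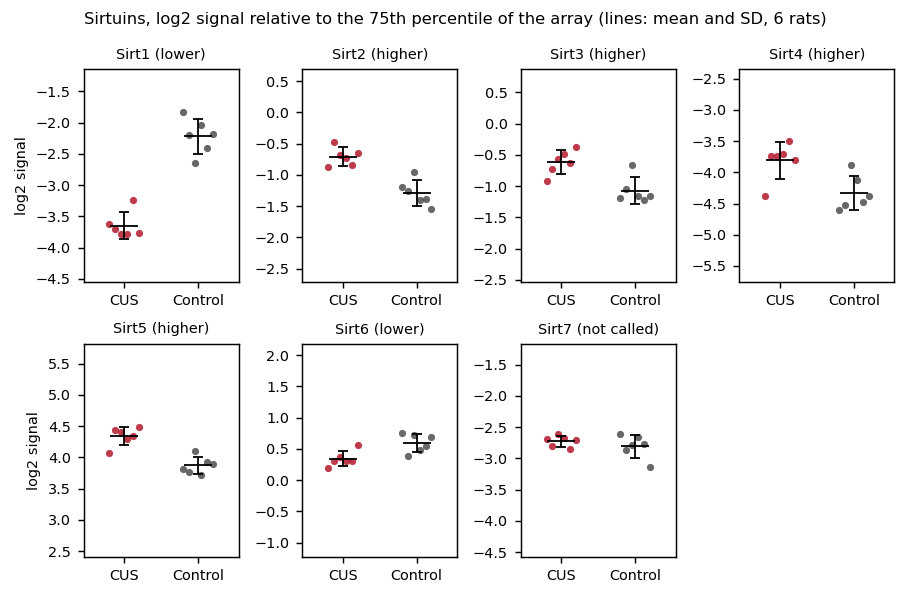
Log2 signal of the 7 sirtuins on each array, relative to the 75th percentile of the array, with CUS on the left and Control on the right of each panel, 6 rats each. Horizontal lines are means and bars are SDs, and every panel spans the same number of log2 units. Sirt1 values do not overlap (highest CUS -3.24, lowest control -2.64), and Sirt3, Sirt4 and Sirt5 are higher in CUS with some overlap. Sirt4 would be lower with normexp background correction and Sirt6 higher with spike-in scaling.

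All 9 tested zinc-dependent deacetylases passed the test, against 50% of all genes. Of them 5 were higher (55.6%, against 24.2% of all genes) and 4 were lower (44.4%, against 25.8%). Hdac1, Hdac4 and Hdac10 had differences above 0 with spike-in scaling, without passing, and Hdac8 was lower with normexp background correction. The split ran through the classes. Of class I, the nuclear deacetylases of corepressor complexes, Hdac3 and Hdac8 were higher and Hdac1 was lower. Of class IIa, which shuttle between nucleus and cytoplasm and repress MEF2 targets, Hdac5 was higher and Hdac4 and Hdac7 were lower. Of class IIb, the tubulin deacetylase Hdac6 was higher by 0.49 (adjusted p = 0.0012) and the polyamine deacetylase Hdac10 differed by -0.45 (adjusted p = 0.0036), and neither overlapped between groups. Hdac11, the sole member of class IV and a remover of fatty acyl groups, had the largest difference above 0 of the deacetylases with this scaling (Hdac8 had with quantile normalization), with 0.45 to 0.85 (median 0.70) in CUS and -0.34 to 0.19 (median -0.09) in controls. All CUS values were above all control values, and the difference was 0.78 (standard error 0.11, adjusted p = 0.00016). Hdac5 had -0.09 to 0.37 (median 0.26) in CUS and -0.48 to -0.19 (median -0.33) in controls. These groups did not overlap either, and the difference was 0.53 (standard error 0.09, adjusted p = 0.00065). Hdac4 differed by -0.69 (standard error 0.13, adjusted p = 0.0012) and did not overlap, although control replicate 3 was far above the other controls. Hdac5 relative to Hdac4 on the same array was 1.38 to 1.99 (median 1.85) in CUS and 0.06 to 0.82 (median 0.58) in controls. Both genes were without overlap and changed in opposite directions, so this ratio is no separate support.

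Hdac7, known for its role in vessel integrity and thymocyte selection, had -1.32 to -0.28 (median -0.90) in CUS and -0.79 to 0.93 (median 0.65) in controls. It was the widest spread of the deacetylases, and the groups overlapped only through control replicate 3, whose -0.79 lay far below the 0.50 of the next control. The difference was -1.27 (standard error 0.28, adjusted p = 0.0027), and -1.53 (adjusted p = 3.5e-05) without control replicate 3. At the other probes, printed above, Hdac7 differed by -0.49 (adjusted p = 0.0031) and -0.91 (adjusted p = 5.6e-05). Control replicate 3 was the lowest control for other lower members too, as given above, so this is not particular to Hdac7. Transcripts of endothelial, smooth muscle and fibroblast cells were also lower in CUS in part, and their signal was likewise low in control replicate 3. The summed signal of 7 endothelial markers, 4 of them lower in CUS, was 4.21 to 5.20 (median 4.72) in CUS and 4.17 to 6.27 (median 5.83) in controls, and the lowest control was again replicate 3. Among them Vwf, the von Willebrand factor, differed by -1.54 (adjusted p = 0.0016) and Pecam1, an adhesion molecule of endothelium, by -1.46 (adjusted p = 0.0056). Of 7 smooth muscle and pericyte markers 4 were lower and 1 was higher (median -1.39), with summed signals of 3.57 to 4.14 in CUS and of 3.66 to 5.51 in controls. Of 6 fibroblast and preadipocyte markers 3 were lower and 1 was higher (median -1.09), with 5.16 to 5.90 in CUS and 5.67 to 6.93 in controls, and in both lists replicate 3 was the lowest control. With spike-in scaling 2 smooth muscle markers and none of the endothelial or fibroblast markers were called lower. Their part in the value of Hdac7 was not tested, and in a bulk sample fewer cells of a type and less RNA per cell cannot be told apart.

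The remaining deacetylases changed little in size. Hdac1, the brightest deacetylase probe and a catalytic subunit of the Sin3, NuRD and CoREST complexes, ranged over 2.05 to 2.42 (median 2.23) in CUS and over 2.15 to 2.89 (median 2.62) in controls. The groups overlapped, and the difference of -0.35 (standard error 0.12, adjusted p = 0.027) lost its call in 5 of 12 omissions (adjusted p up to 0.061). The other Hdac1 probes differed by -0.36 each (adjusted p = 0.017 and 0.0059). Hdac3, the catalytic subunit of the NCoR complex, was higher by 0.29 (adjusted p = 0.020), or by 0.15 with normexp background correction, where the call was lost (adjusted p = 0.088). Hdac8 was higher by 0.50 (adjusted p = 0.0062) and was well above background on 5 of 6 control arrays, but its difference was -0.31 with normexp background correction.

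**Figure D3:**
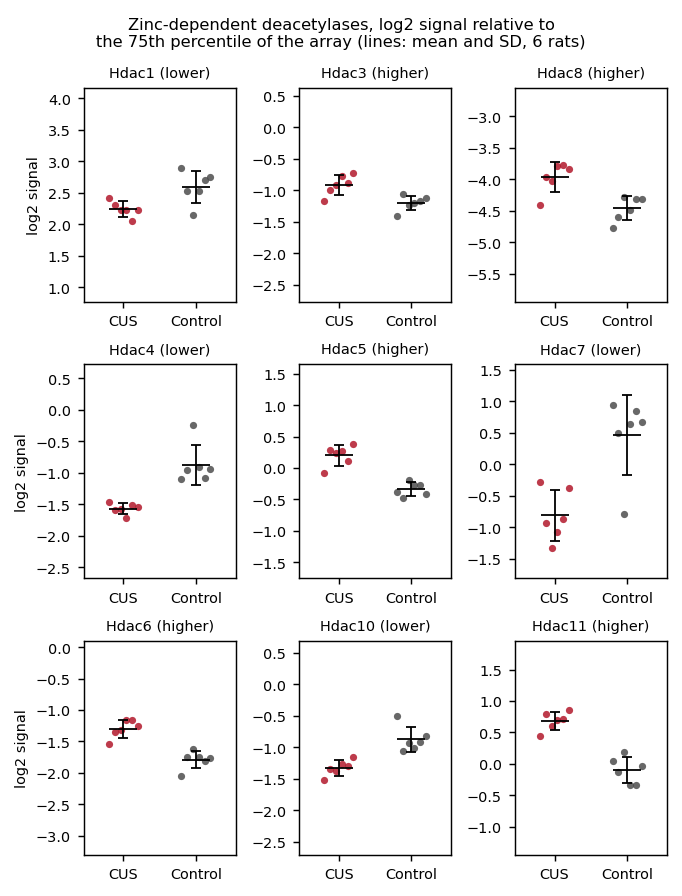
Log2 signal of the 9 tested zinc-dependent deacetylases on each array, relative to the 75th percentile of the array, with CUS on the left and Control on the right, 6 rats each, by class (I in the top row, IIa in the middle, IIb and IV at the bottom). Lines are means and SDs. Control replicate 3 stands apart for Hdac4 (-0.24) and Hdac7 (-0.79). With spike-in scaling the differences of Hdac1, Hdac4 and Hdac10 would be above 0 without passing, and with normexp background correction Hdac8 would be lower.

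Most histone demethylases did not pass the test. Of 8 tested lysine demethylases, 2 were lower (Kdm2b and Kdm4dl, 25%, against 25.8% of all genes). None was higher, against 24.2% of all genes, and 6 did not pass. With spike-in scaling the difference of Kdm4dl was 0.03. Kdm2b, the demethylase that brings a variant polycomb complex to CpG islands, had -3.05 to -2.52 (median -2.75) in CUS and -1.94 to -1.56 (median -1.90) in controls. The groups were clearly apart, with a difference of -0.92 (standard error 0.10, adjusted p = 3.7e-05). Kdm4dl, a relative of Kdm4d by name, had -3.79 to -3.39 (median -3.62) in CUS and -3.60 to -2.08 (median -2.85) in controls, which differ by -0.80 (standard error 0.21, adjusted p = 0.0069). The controls spread over a wider range than the CUS rats, and the groups overlapped. Kdm2a, the relative of Kdm2b and the brightest demethylase probe, had 1.84 to 2.33 (median 2.23) in CUS and 2.08 to 2.35 (median 2.27) in controls and did not pass (-0.07, adjusted p = 0.57). Its dimmer probe, printed above, differed by -0.95 (adjusted p = 0.0014), so that the call for Kdm2a rested on the probe taken. Kdm1, the demethylase LSD1, differed by 0.02, Kdm3a, which acts in beta-adrenergic signalling of fat, by 0.04, Kdm5b by 0.04, Kdm6b by -0.07 and Kdm4a by 0.32, and none of them passed (adjusted p between 0.17 and 0.83).

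Tet2, which oxidises methylcytosine, was the only tested member of its family, with -4.39 to -3.29 (median -3.59) in CUS and -3.88 to -2.79 (median -2.93) in controls. The groups overlapped only through control replicate 3, at -3.88. The difference was -0.60 (standard error 0.22, adjusted p = 0.038), and -0.76 (adjusted p = 0.0037) without that array. The overlapping probe gave -0.57 and did not pass (adjusted p = 0.051). The call was lost in 7 of 12 omissions (adjusted p up to 0.080) and with quantile normalization, and the difference was 0.23 with spike-in scaling.

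Of the DNA methyltransferases, Dnmt3b, a de novo enzyme, had -4.70 to -4.30 (median -4.58) in CUS and -4.32 to -3.20 (median -3.47) in controls. Its highest CUS value lay just above its lowest control value. The difference was -0.95 (standard error 0.17, adjusted p = 0.00064) at a probe that was well above background on 6 CUS and 5 control arrays, and none of the 12 arrays read its other probe well above background. Dnmt3a, the other de novo enzyme, had -4.40 to -3.62 (median -4.15) in CUS and -4.10 to -3.65 (median -3.77) in controls and did not pass (-0.29, adjusted p = 0.084). No array read the maintenance enzyme Dnmt1 well above background. Transcripts of proliferating cells differed as well. Of 12 tested, 7 were lower and 1 was higher, with a median of -0.91 over the list, and with spike-in scaling 2 were lower and 2 were higher. Their summed signal was 1.72 to 2.26 (median 2.05) in CUS and 2.02 to 2.76 (median 2.42) in controls. Top2a, the topoisomerase of dividing cells, differed by -1.80 (adjusted p = 0.00039), and its part in the values of the methyltransferases was not tested. Ezh2, the polycomb methyltransferase of histone H3 lysine 27 in dividing cells, differed by -0.60 without passing (adjusted p = 0.16). Ezh1, its counterpart in resting cells, had 3.75 to 3.99 (median 3.90) in CUS and 3.62 to 3.98 (median 3.74) in controls. The overlap came from control replicate 1 and CUS replicate 1, the other CUS values lying above the other control values, and neither probe of Ezh1 passed (differences 0.13 and 0.44, adjusted p = 0.17 and 0.065).

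Among the methyltransferases of histone lysines, Suv420h2 (current symbol Kmt5c), which methylates histone H4 lysine 20 in heterochromatin, fell by about as much as Sirt1, and by more with quantile normalization and normexp background correction. Its log2 signals were 0.31 to 0.78 (median 0.52) in CUS and 1.30 to 2.13 (median 1.91) in controls. The groups were far apart, and the difference was -1.30 (standard error 0.15, adjusted p = 3.9e-05), or 0.407 times the control level. With spike-in scaling it was -0.47 and did not pass (adjusted p = 0.14). Its paralogue Suv420h1 (Kmt5b) differed by -0.29 at the brightest probe, without passing (adjusted p = 0.070), and by -0.33 at the other (adjusted p = 0.016). Of the MLL proteins, which methylate histone H3 lysine 4, Mll1 (Kmt2a) differed by -0.46 (adjusted p = 0.0083), and Mll2 (Kmt2d, -0.77, adjusted p = 0.075) and Mll4 (Kmt2b, -0.16, adjusted p = 0.10) did not pass. Mll5 (Kmt2e), a relative that binds this mark, was the brightest of them, with 1.68 to 2.19 (median 2.03) in CUS and 2.37 to 2.92 (median 2.69) in controls. The groups did not overlap, and the difference was -0.67 (standard error 0.13, adjusted p = 0.0013), with -0.84 at its other probe (adjusted p = 0.00045). With spike-in scaling Mll1 and Mll5 were above 0, at 0.37 and 0.16.

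The SET domain proteins that passed were Setd4 (-0.40, adjusted p = 0.0025), Setd5 (-0.69, adjusted p = 0.0032), Setd7 (-0.57, adjusted p = 0.0050) and Setd6 (0.44, adjusted p = 0.0050), where the 3 lower ones were above 0 with spike-in scaling, at 0.43, 0.13 and 0.26. The call of Setd7 was lost with quantile normalization, where its difference was -0.33. Setd7 methylates histone H3 lysine 4 and several transcription factors, and Setd6 methylates the NF-κB subunit RelA. Setd4, the brightest of the family, had 0.95 to 1.38 (median 1.20) in CUS and 1.52 to 1.71 (median 1.60) in controls, with no overlap. Setd2, the trimethylating enzyme of histone H3 lysine 36, differed by -0.03 without passing (adjusted p = 0.90).

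Arginine methyltransferases, which act on histones, splicing factors and ribosomal proteins, had 4 of 7 tested members higher (57.1%, against 24.2% of all genes). None was lower, against 25.8% of all genes. Of the 4, Prmt3 was below 0 with normexp background correction and entered the test through the CUS arrays. Prmt3, which methylates a ribosomal protein, had -4.30 to -3.83 (median -4.22) in CUS and -5.44 to -4.44 (median -4.80) in controls. It did not overlap and differed by 0.72 (standard error 0.16, adjusted p = 0.0027), but its probe was well above background on all 6 CUS arrays and on 2 control arrays. Prmt2, a nuclear receptor coactivator, had 0.07 to 0.36 (median 0.24) in CUS and -0.85 to 0.01 (median -0.33) in controls. It was bright on all arrays, did not overlap and differed by 0.58 (standard error 0.13, adjusted p = 0.0032). Prmt5, the main symmetric arginine methyltransferase, was higher by 0.35 (adjusted p = 0.016). Prmt10 (Prmt9) was higher by 0.34 (adjusted p = 0.034), and this call was lost in 10 of 12 omissions (adjusted p up to 0.079). Prmt1, which makes most asymmetric dimethylarginine and was the brightest of the family, had 3.42 to 3.75 (median 3.45) in CUS and 3.02 to 3.72 (median 3.53) in controls, with a difference of 0.02 (adjusted p = 0.89). Prmt6 (-0.34, adjusted p = 0.089) and Prmt7 (0.04, adjusted p = 0.77) did not pass.

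Only 2 lysine acetyltransferases carried a Kat name in the array files. Kat2a, the catalytic subunit GCN5 of the SAGA complex, was lower, with a difference of -0.75 (standard error 0.11, adjusted p = 0.00025). Its groups, -4.12 to -3.57 (median -3.88) in CUS and -3.31 to -2.88 (median -3.21) in controls, did not overlap. With spike-in scaling it was at 0.08 and did not pass. Kat5, the catalytic subunit TIP60 of the NuA4 complex, had 3.75 to 3.99 (median 3.90) in CUS and 3.61 to 4.13 (median 3.97) in controls at its brightest probe. The CUS range lay within the control range (-0.05, adjusted p = 0.74), but the dimmer probe printed above was higher by 0.33 (adjusted p = 0.015). Of the 9 members read by several tested probes, none had probes that passed in opposite directions, and Kat5 was the only one whose probes differed in sign.

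**Figure D4:**
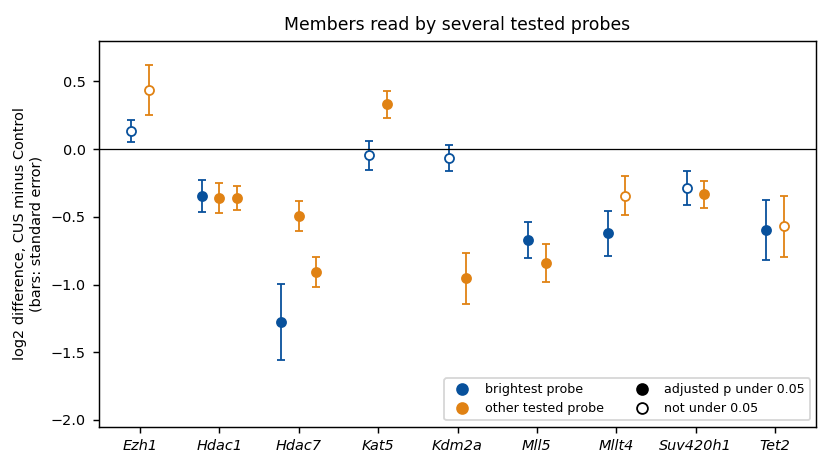
Log2 differences, CUS minus Control, at each tested probe of the 9 members with several, with standard errors as bars (n = 6 rats per group), filled where the adjusted p was under 0.05. The 3 probes of Hdac1 lie together near -0.35, those of Hdac7 spread over -1.27 to -0.49, and Kdm2a, Kat5 and Suv420h1 pass at the dimmer probe only. With spike-in scaling the brightest probes of all but Hdac7 would lie above 0.

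Kat3 carries the name of an acetyltransferase but is kynurenine aminotransferase III in the array files (current symbol Kyat3), an enzyme of tryptophan metabolism. It had the largest rise of the 55 tested members with this scaling, although Prmt3, Sirt4 and Hdac8 had larger differences with quantile normalization. Its log2 signals were -0.15 to 0.54 (median 0.22) in CUS and -1.11 to 0.22 (median -0.73) in controls. The ranges met at control replicate 3, and the difference was 0.83 (standard error 0.20, adjusted p = 0.0048). The Mllt genes are fusion partners of MLL in leukaemia and not methyltransferases. Mllt4 (Afdn), the junction protein afadin, differed by -0.62 (adjusted p = 0.0084), with -0.34 at its other probe, which did not pass (adjusted p = 0.059), and Mllt11 by -0.59 (adjusted p = 0.021), where both were above 0 with spike-in scaling (0.21 and 0.24). Mllt1, the reader ENL and the brightest of them, had 1.73 to 2.09 (median 1.87) in CUS and 1.82 to 2.28 (median 2.00) in controls and did not pass (-0.14, adjusted p = 0.26). Mllt3 (0.35, adjusted p = 0.055) and Mllt10 (-0.20, adjusted p = 0.26) did not pass either. With the genes of neither class left out and the 10 enzymes under older names that are given below added, 14 of 59 tested genes were higher and 18 were lower.

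The 8 members that were too dim to test were Dnmt1, Dnmt3l, Hdac2, Hdac9, Kdm4d, Suv39h1, Suv39h2 and Tet1. Each was well above background on at most 2 arrays of a group, Dnmt1, Hdac2, Suv39h1, Suv39h2 and Tet1 on none. These include the maintenance DNA methyltransferase, a partner of Hdac1 in its complexes and both methyltransferases of histone H3 lysine 9 that the name rule takes in, and their levels could not be compared here.

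Another 10 enzymes of the same families carry older names in the files and fall outside the rule, namely Kat2b, Kat6a, Kat7, Kat8, Kat14, Kdm1b, Kdm4b, Kdm5a, Kdm5c and Kdm8 by current symbol. None was higher, against 24.2% of all genes, and 1 was lower (10%, against 25.8%). This was Kdm4b, a demethylase of histone H3 lysine 9, which differed by -0.36 (adjusted p = 0.013), and by 0.47 with spike-in scaling. The partners of the enzymes, a list of complex subunits, readers and further modifying enzymes, were measured for 68 tested genes, of which 20 were higher (29.4%, against 24.2% of all genes) and 13 were lower (19.1%, against 25.8%), with a median difference of -0.01. With spike-in scaling 12 of the 13 were above 0, and with normexp background correction 6 of the 20 were below 0. Lower were the acetyltransferase Crebbp (-0.89), Epc1 of the NuA4 complex (-0.67), the polycomb reader Cbx6 (-0.66), the corepressor scaffold Sin3a (-0.62), the thymine DNA glycosylase Tdg (-0.60) and Uhrf2 (-0.57), of which Crebbp alone stayed below 0 with spike-in scaling. Higher were Setmar (1.06), Hr (1.01), Smyd2 (0.94), Smyd4 (0.90), the polycomb subunit Eed (0.86) and Mta3 of the NuRD complex (0.75), of which Setmar, Smyd4 and Mta3 were below 0 with normexp background correction.

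The enzymes that make or use the cofactors of these reactions were more often higher than lower. Of 26 tested, 14 rose (54%, against 24.2% of all genes), 4 fell (15.4%, against 25.8%) and 8 did not pass. The median difference was 0.38, and without control replicate 3 the counts were 17 and 5. Quantile normalization and normexp background correction kept the sign of all 18, but with spike-in scaling none of the 4 falls was called, and Nmnat1 was above 0. Acss2, which makes acetyl-CoA from acetate, was higher by 0.97 (adjusted p = 0.0018), Idh1, the cytosolic source of 2-oxoglutarate and NADPH, by 0.93 (adjusted p = 0.00046), and Nampt, the rate-limiting enzyme of NAD salvage, by 0.73 (adjusted p = 0.00066). D2hgdh (0.81), which clears D-2-hydroxyglutarate, an inhibitor of demethylases, and Idh3a (0.77), of the citric acid cycle, were also higher. On the side of methyl donors, Mat2a, which makes S-adenosylmethionine, differed by -1.05 (adjusted p = 0.0011) and Bhmt, which remakes methionine from betaine, by -1.39 (adjusted p = 7.3e-05), while the NAD enzymes Nmnat2 (-0.85) and Nmnat1 (-0.48) were lower too. The summed signal of this list was 6.98 to 7.36 (median 7.31) in CUS and 6.73 to 7.39 (median 6.85) in controls, and control replicate 3 was the highest of all 12 arrays.

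**Figure D5:**
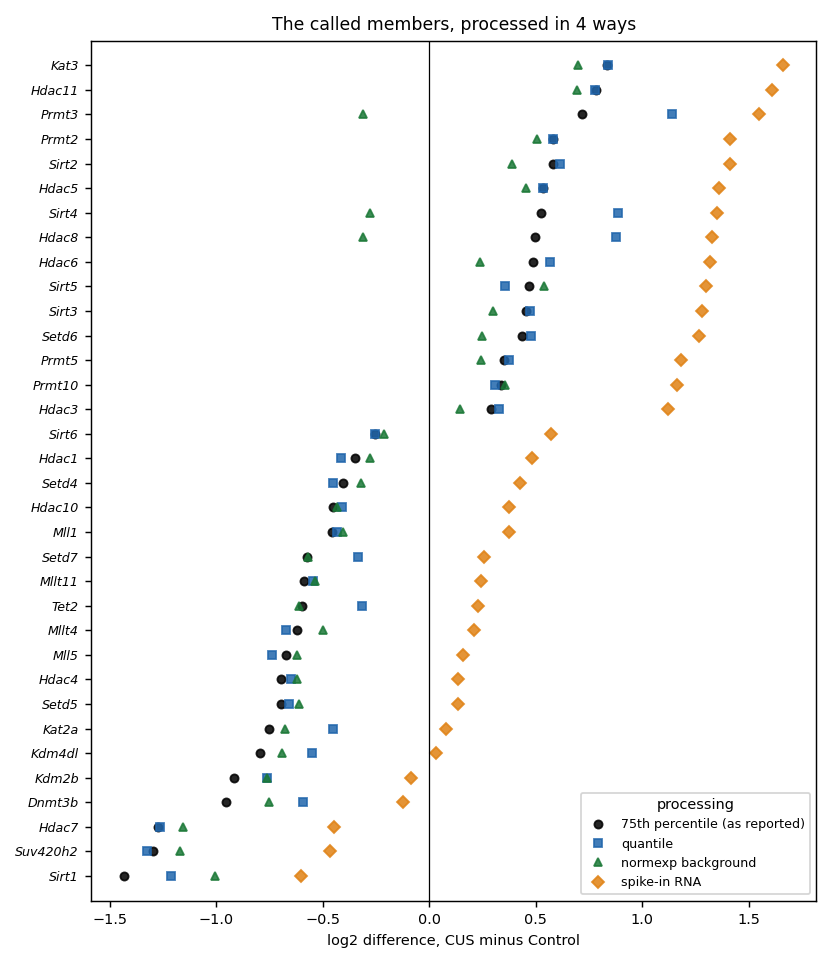
Log2 differences, CUS minus Control, of the 34 called members under 4 ways of processing the arrays, sorted by the reported value (75th percentile). Spike-in scaling moves all of them up by the same amount and leaves Sirt1, Suv420h2, Hdac7, Dnmt3b and Kdm2b below 0. Normexp background correction takes Prmt3, Sirt4 and Hdac8 below 0.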

How the data were processed

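Gene expression in epididymal adipocytes was measured on 12 arrays of 1 colour, 1 per rat, with groups taken from the labels. Spot intensity was deposited by the authors as scanner output, background-subtracted by Agilent Feature Extraction (10.7.3.1, per the file headers) without normalization between arrays. Their quantile normalized table served as an alternative. After removal of outlier spots, log2 values were averaged over the spots of each probe and expressed against the array's 75th percentile without control probes. Probes with outlier spots only kept those spots. The test took probes that were well above background on 6 or more of the 12 arrays (19728 probes, 17417 genes), and a gene was read from its brightest tested probe. Groups were compared by limma 3.58.1 (R 4.3.3), two-sided, with no covariate and Benjamini-Hochberg adjustment over all tested probes. Python 3.11.15 with pandas 2.3.3 and NumPy 2.4.6 made the tables, and matplotlib 3.10.9 drew the figures.

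The members and lists were chosen with earlier results of these data known. Values per group were given for the called members with the largest changes, 6 up and 6 down, and for the brightest member of each family, and log2 differences for the others. The files hold the file names of genes, and current symbols were found by accession for 17514 probes. Alternatives to the scaling, background correction, filter, probe choice, variance model and test were tried, the replicate number was used as a block, and each array was left out in turn. The procedure was tested on simulated data. The number of arrays limits the precision of each value. A gene of the cofactor list that the rule would name is not reported here by name.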

Additional observations from a re-analysis of the deposited data

Results flagged for a closer look

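In 10 of 110 groups of 6 arrays (each tested member in CUS and in Control), the highest or lowest array lay far from the other 5 by Dixon's test (gap to the nearest array over the range of the group, past the critical value of that test). Chance alone flags about 1 in 20 groups. Of these, 4 were CUS groups and 6 were control groups, and control replicate 3 was the distant array in 5.

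Among CUS arrays, Sirt1 was highest in replicate 5 at -3.24 (the others -3.78 to -3.63), and Sirt4 was lowest in replicate 1 at -4.37 (the others -3.80 to -3.50). Kdm2a was lowest in CUS replicate 1 at 1.84 (the others 2.15 to 2.33), and Kdm4a was highest in CUS replicate 6 at -2.99 (the others -3.88 to -3.69). Among control arrays, Kdm2b was highest in replicate 1 at -1.56 (the others -1.94 to -1.82).

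In control replicate 3, Hdac7 was lowest at -0.789 (the others 0.499 to 0.935), and Hdac4 was highest at -0.242 (the others -1.10 to -0.911). Prmt10 at 1.26 (the others 0.616 to 0.819), Setd6 at -1.12 (the others -1.53 to -1.41) and Sirt3 at -0.657 (the others -1.22 to -1.05) were also highest in this array. Without it, the limma difference was -1.53 for Hdac7, -0.57 for Hdac4, 0.42 for Prmt10, 0.49 for Setd6 and 0.54 for Sirt3, and all 5 were still called, with Hdac4 above 0 only under spike-in scaling and without scaling.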

How the results depend on the processing

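With spike-in scaling 31 members were higher and 1 was lower, with 11 and 0 among writers, 17 and 1 among erasers, and 11114 and 444 among all genes (limma, 0 writers being called lower). Without scaling the counts were 35 and 1 for members, 14 and 0 for writers, 17 and 1 for erasers, and 11773 and 682 for all genes. Both settings moved the median of all tested probes up by construction. With normexp background correction 31 members, 15 writers and 7657 genes were lower. Without the filter on dim probes 11285 genes were lower. Counted probe by probe, 14 eraser probes were lower. The methods' t-test at a fold of 2 and P under 0.05 called 0 members higher and 3 lower, 0 writers higher and 1 lower, 0 erasers higher and 2 lower, and 564 genes higher and 1539 lower, while after Benjamini-Hochberg alone it called 15 members higher and 19 lower. The deviations of same-numbered arrays correlated between -0.19 and 0.43, and whether the replicate numbers pair the rats cannot be told from this. With the replicate block 15 members were higher and 20 were lower. Enzymes by current symbol, a choice made after seeing the data, gave 14 higher and 18 lower.

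Leaving out each array in turn gave 14 to 16 higher and 17 to 22 lower members, 4 to 5 higher and 8 to 11 lower writers, 9 higher and 6 to 9 lower erasers, and 3657 to 5084 higher and 3908 to 5306 lower genes. Of members that did not pass, the sign turned over these omissions for Kdm1 (-0.021 to 0.065), Kdm3a (-0.042 to 0.11), Kdm5b (-0.014 to 0.097), Kdm6b (-0.17 to 0.12), Prmt1 (-0.073 to 0.068), Prmt7 (-0.0034 to 0.093) and Setd2 (-0.15 to 0.11).

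The log2 differences that changed sign under another setting were these. With spike-in scaling the sign turned for Dnmt3a 0.54, Ezh2 0.23, Hdac1 0.48, Hdac10 0.38, Hdac4 0.13, Kat2a 0.077, Kat5 0.78, Kdm2a 0.76, Kdm4dl 0.033, Kdm6b 0.76, Mll1 0.37, Mll2 0.062, Mll4 0.67, Mll5 0.16, Mllt1 0.69, Mllt10 0.63, Mllt11 0.24, Mllt4 0.21, Prmt6 0.49, Setd2 0.80, Setd4 0.43, Setd5 0.13, Setd7 0.26, Sirt6 0.57, Suv420h1 0.54 and Tet2 0.23. Without scaling the sign turned for Dnmt3a 0.48, Ezh2 0.18, Hdac1 0.43, Hdac10 0.32, Hdac4 0.083, Kat2a 0.025, Kat5 0.73, Kdm2a 0.71, Kdm6b 0.71, Mll1 0.32, Mll2 0.010, Mll4 0.62, Mll5 0.11, Mllt1 0.64, Mllt10 0.57, Mllt11 0.19, Mllt4 0.16, Prmt6 0.44, Setd2 0.75, Setd4 0.37, Setd5 0.083, Setd7 0.21, Sirt6 0.52, Suv420h1 0.49 and Tet2 0.18. With normexp background correction the sign turned for Hdac8 -0.31, Kat5 0.037, Kdm1 -0.024, Kdm2a 0.0099, Kdm3a -0.19, Kdm4a -0.31, Prmt3 -0.31, Prmt7 -0.068, Sirt4 -0.28 and Sirt7 -0.25. With quantile normalization the sign turned for Dnmt3a 0.059, Ezh1 -0.0013, Mllt10 0.035, Prmt1 -0.11, Prmt6 0.16 and Setd2 0.0033. With the authors' value table the sign turned for Dnmt3a 0.061, Ezh1 -0.0026, Mllt10 0.046, Prmt1 -0.11, Prmt6 0.15 and Setd2 0.0046. With array weights the sign turned for Kdm1 -0.046, Kdm2a 0.015, Kdm3a -0.016 and Prmt1 -0.027. With the mean of the tested probes the sign turned for Kat5 0.14.

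The cause of these changes was not tested. The dimmest tested members (Prmt6, Ezh2, Prmt3, Mll2, Hdac8, Sirt4, Dnmt3b and Dnmt3a, by mean over the groups) have signals near the background, which limits what can be read from them. Slide and group coincide, and no alternative separates them.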
